A study of Mus musculus with 56 samples.

Results

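Immediate early genes are switched on within minutes of a stimulus, from proteins already in the cell, and many of their transcripts and proteins decay quickly. They encode transcription factors and short-lived regulators that pass a signal on to slower genes. Growth factors and cytokines, acting through MAP kinases, and cAMP, acting through CREB, are classical inducers, and in liver the same genes are known for their response to partial hepatectomy and to feeding and fasting. The genes described here were named by symbol and not by a rule on measured values, but with earlier results of these data known: Fos, Jun, Junb, Egr1, Atf3, Ier2, Ier3, Klf6 and Myc. All 9 were found once each among the 25415 genes listed, and all 9 were among the 25164 genes tested.

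The 56 livers came from female C57BL/6J mice aged 9 weeks, with each library taken as 1 animal. Where the 4 values of a group are listed they follow the labels' replicate numbers. Food was offered for 7 days either in the light phase (daytime-restricted feeding, DRF, food from ZT0 to ZT12) or in the dark phase (nighttime-restricted feeding, NRF, the reference, food from ZT12 to ZT24). ZT is zeitgeber time, in hours after lights-on in a cycle of 12 h of light and 12 h of darkness that both regimens shared. Livers were taken every 4 h from ZT0 to ZT24 from 4 animals per regimen and time, which gave 14 groups and 28 libraries per regimen. Each animal gave a single time point, and whole liver was used, so fewer cells of a type and less RNA per cell cannot be told apart in any value below.

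The level of a gene is given as a scaled count, rebuilt from the deposited values and already corrected for library size, where 1 scaled count stands for 304 to 723 recovered counts (median 513) depending on the library. Recovered counts came to between 177 M and 404 M per library (M, mega). Differences are in log2(scaled count + 1) with their standard error, from limma fitted to all genes with the 14 groups, and a gene was called when its p adjusted over all 25164 genes was under 0.05. The added 1 shrinks the log2 difference of the low genes Fos, Ier3 and Myc, so the ratio of group means is given beside it. Of the hepatocyte markers, Alb, Ttr, Apoa1 and Serpina1a were too high to be rebuilt and are known only as deposited values (267 to 300, 389 to 438, 338 to 399 and 242 to 277). The summed scaled counts of the other marker lists over the 56 libraries ran from 397 to 568 for sinusoidal endothelium, 507 to 1204 for Kupffer cells, 647 to 924 for stellate cells, 20.6 to 40.8 for cholangiocytes, 0.302 to 1.84 for neutrophils (3 of 4 symbols), 0.746 to 4.05 for B and T cells and 469 to 2039 for erythroid cells, and no tested marker was at 0 in any library.

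The promoters of the AP-1 members and Atf3 are shown because most of the results below turn on these genes. Each is the 250 bases before the RefSeq transcript start on GRCm38.p6, read in the direction of transcription. Capitals mark the short form of the cAMP response element (CRE), TGACG, or its reverse complement CGTCA, and the 8-base element TGACNTCA that AP-1 and CREB family proteins both bind. Fos lies at chr12:85473640-85473889 on the plus strand, Jun at chr4:95052223-95052472 on the minus strand, Junb at chr8:84978749-84978998 on the minus strand and Atf3 at chr1:191183334-191183583 on the minus strand.
Fos: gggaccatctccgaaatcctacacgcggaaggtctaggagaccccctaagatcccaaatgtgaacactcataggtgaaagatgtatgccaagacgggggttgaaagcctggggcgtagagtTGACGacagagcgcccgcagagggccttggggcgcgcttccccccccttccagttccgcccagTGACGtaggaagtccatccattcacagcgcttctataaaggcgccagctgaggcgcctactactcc
Jun: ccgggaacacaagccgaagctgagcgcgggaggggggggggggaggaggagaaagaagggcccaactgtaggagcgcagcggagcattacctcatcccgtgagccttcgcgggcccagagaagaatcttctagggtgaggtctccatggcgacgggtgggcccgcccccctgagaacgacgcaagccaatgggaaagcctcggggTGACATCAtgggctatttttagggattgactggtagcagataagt
Junb: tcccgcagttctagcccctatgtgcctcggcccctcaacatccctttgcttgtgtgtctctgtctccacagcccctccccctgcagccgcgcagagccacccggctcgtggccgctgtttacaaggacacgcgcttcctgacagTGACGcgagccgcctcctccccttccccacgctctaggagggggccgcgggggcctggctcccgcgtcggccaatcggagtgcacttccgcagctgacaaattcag
Atf3: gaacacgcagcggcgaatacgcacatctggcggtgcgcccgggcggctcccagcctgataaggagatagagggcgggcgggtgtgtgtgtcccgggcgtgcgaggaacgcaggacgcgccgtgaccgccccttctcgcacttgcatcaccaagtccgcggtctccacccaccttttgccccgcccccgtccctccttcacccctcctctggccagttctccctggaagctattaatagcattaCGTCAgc

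The search covered 250 bases before and 50 after each start, on both strands, for the 6 members with a promoter in the RefSeq table that is reported here (Fos, Jun, Junb, Atf3, Ier3 and Klf6). TGACG occurred at bases -129 and -66 of Fos and -106 of Junb, and CGTCA at -7 of Atf3, counted from the start; 20.8% of all 32851 promoters hold this short form. TGACATCA, a form of TGACNTCA, occurred at -45 of Jun and -119 of Klf6, and TGACNTCA is held by 8.83% of promoters. The full CRE, TGACGTCA (1.79% of promoters), the 7-base AP-1 site TGANTCA (7.81%) and the CArG box bound by serum response factor (1.63%) were found in none of the 6 windows. TGACGTCA contains TGACG and is also a form of TGACNTCA, so these counts overlap. Ier3 had no marked element. The RefSeq start of Atf3 lies downstream of the GENCODE gene start, inside the gene, and the deposited gene value does not separate transcripts from the different starts.

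Per kilobase of exon, the mean level over the 56 livers was highest for Atf3, a stress-induced member of the ATF/CREB family, at 4.10 scaled counts per kb. Ier2, a small nuclear regulator, followed at 2.49, and Junb, an AP-1 subunit, at 2.17. Egr1, a zinc finger factor, stood at 1.36 and Klf6, a Krüppel-like factor, at 1.30. Jun, the partner of Fos in AP-1, was at 0.828, and Myc, the growth-related E-box factor, at 0.334. Ier3, a regulator of survival and ERK signalling, was at 0.197, and Fos was the lowest at 0.129 scaled counts per kb. The ranges over the libraries overlapped between neighbours all along this order. Fos rested on 22 to 1078 recovered counts per library and Ier3 on 44 to 314, so their relative counting error was larger than for Atf3, with 1391 to 14292. Recovered counts exceed the read depth given in the study's methods, so the size of that error is not known.

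Between the lowest and the highest of the 56 livers, Egr1 differed 77.5-fold, Fos 31.0-fold and Junb 21.0-fold. The corresponding range was 11.1-fold for Atf3, 11.02-fold for Jun, 7.26-fold for Myc and 5.49-fold for Ier3. It was 4.35-fold for Ier2 and 2.03-fold for Klf6, the steadiest member. The spread within a group of 4 was also wide: the median fold between the lowest and highest animal of a group was 6.65 for Egr1 under DRF and 4.20 under NRF, against 1.23 and 1.18 for Klf6. Jun shares 232 bases (7.28% of its exon length) with the antisense gene Junos, and Junb shares 173 bases (7.52%) with Prdx2 on the opposite strand; the libraries were stranded, but the strand setting of the counting is not given in the sources used here.

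**Figure D1:**
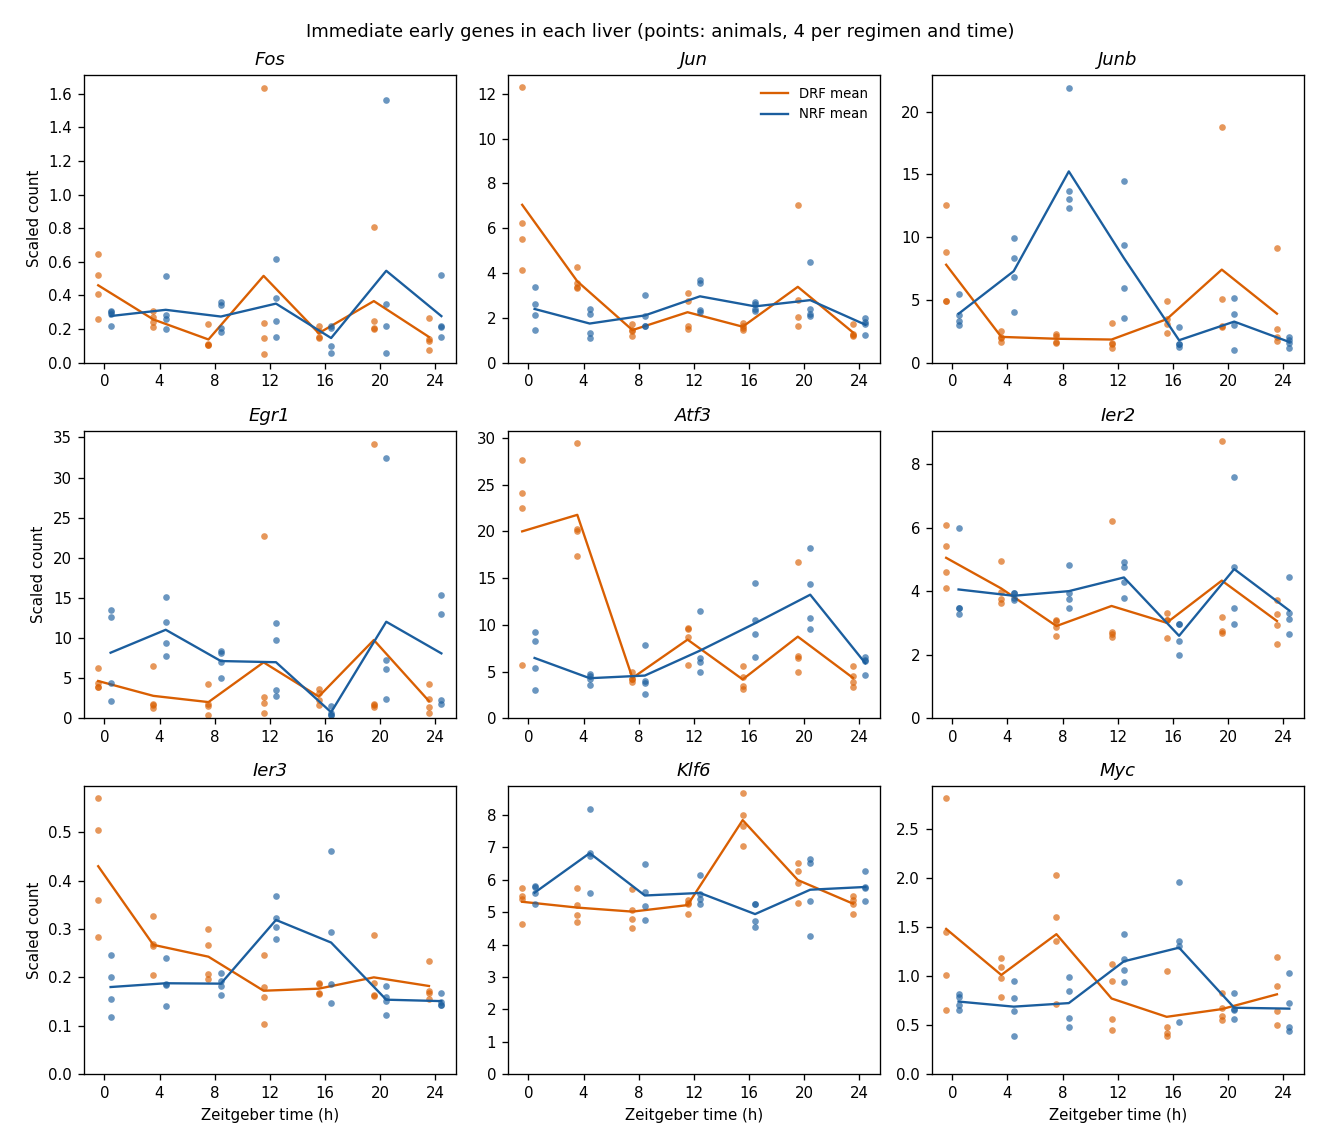
Scaled counts of the 9 immediate early genes (vertical axes, each from 0) against zeitgeber time in hours (horizontal axes), with 1 point per liver and a line through the means of the 4 animals of each regimen (orange DRF, blue NRF). Jun, Atf3 and Ier3 were high under DRF at ZT0, Junb was high under NRF at ZT8, and Klf6 was high under DRF at ZT16.

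To determine whether feeding time altered these genes at a given time of day, DRF was compared with NRF at each of the 7 times. Taken over all times in a joint F test, 7 of 9 members differed between regimens (Jun, Junb, Egr1, Atf3, Ier3, Klf6 and Myc), where 42.2% of all genes were called. The other two, Fos (limma adjusted p = 0.912) and Ier2 (limma adjusted p = 0.465), did not pass. Egr1 passed narrowly (limma adjusted p = 0.0404) and lost the call in 22 of the fits that left out 1 liver, with adjusted p up to 0.0697. The members did not move as a block: at each of the times with more than 1 call except ZT0 and ZT12, some were higher and some lower under DRF.

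At ZT0, which is lights-on and the start of food access under DRF, 3 of 9 members were called and all 3 were higher under DRF. Over all genes 15.8% were called, and 7.84% were called as higher under DRF. The median difference of the 9 members was 0.28 against -0.00 over all genes. Jun had scaled counts of 4.13, 5.54, 12.3 and 6.23 under DRF and 1.47, 2.61, 3.39 and 2.13 under NRF. The groups did not overlap, and the mean was 2.94-fold higher under DRF (7.05 ± 3.60 against 2.40 ± 0.811, SD, n = 4 each), with a log2 difference of 1.18 ± 0.24 (SE, limma adjusted p = 0.000251). Atf3 had 5.74, 27.6, 22.5 and 24.1 under DRF and 3.04, 8.25, 9.19 and 5.37 under NRF. One DRF liver, at 5.74, fell inside the NRF range, and the means differed 3.09-fold (log2 difference 1.39 ± 0.32, limma adjusted p = 0.00156). Ier3 had 0.284, 0.359, 0.504 and 0.571 under DRF and 0.155, 0.245, 0.201 and 0.119 under NRF, with no overlap and a 2.38-fold difference (log2 difference 0.27 ± 0.05, limma adjusted p = 5.42e-05). The summed erythroid markers were 714 to 2039 in these DRF livers and 582 to 950 in the NRF livers, and their part in the result was not tested.

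At ZT4, 4 h into the DRF meal, 4 of 9 members were called, of 20.2% of all genes, with 2 in each direction. Atf3 was the most different, with 29.4, 19.99, 20.2 and 17.4 under DRF and 4.77, 4.57, 3.63 and 4.24 under NRF. Every DRF liver was above every NRF liver, and the mean was 5.06-fold higher (log2 difference 2.08 ± 0.32, limma adjusted p = 3.69e-06). Jun was also higher under DRF, with 4.27, 3.36, 3.57 and 3.32 against 1.12, 1.33, 2.40 and 2.15 (2.08-fold, limma adjusted p = 0.0149), a call lost without the first NRF liver (limma adjusted p = 0.0686) and with the length index described below as a covariate (limma adjusted p = 0.0663). Junb, which can act against Jun in AP-1 dimers, was lower under DRF, with 1.63, 2.56, 1.95 and 2.08 against 8.36, 4.06, 6.79 and 9.95. These groups did not overlap, and Junb was 3.55-fold lower (log2 difference -1.39 ± 0.39, limma adjusted p = 0.00686). Klf6 was 1.33-fold lower under DRF, with 4.69, 5.73, 5.21 and 4.92 against 5.57, 8.16, 6.81 and 6.72 (log2 difference -0.34 ± 0.09, limma adjusted p = 0.00396), and the lowest NRF liver lay within the DRF range. Egr1 had 1.64, 6.53, 1.30 and 1.81 under DRF and 15.1, 9.41, 11.96 and 7.73 under NRF. These groups did not overlap and the means differed 3.92-fold, but the log2 difference of -1.80 ± 0.70 was not called (limma adjusted p = 0.0615). It was called without the second DRF liver (limma adjusted p = 0.0339), with a replicate block (0.0443), with the length index as a covariate (0.0448) and with a minimum mean of 0.5 (0.0404). The summed erythroid markers were 918 to 1908 in the DRF livers and 469 to 921 in the NRF livers at ZT4. Those of sinusoidal endothelium were 397 to 427 under DRF and 478 to 518 under NRF, without overlap. The part of either list in these results was not tested.

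At ZT8, 1 of 9 members was called, of 12.8% of all genes. Junb reached its highest level of the study under NRF at this time, with 13.1, 13.6, 21.9 and 12.3, against 2.16, 2.25, 1.58 and 1.64 under DRF. The groups were far apart, and Junb was 7.98-fold lower under DRF (15.2 ± 4.47 against 1.91 ± 0.343, log2 difference -2.45 ± 0.39, limma adjusted p = 9.15e-06). The summed neutrophil markers were 0.634 to 1.05 in these DRF livers and 1.28 to 1.78 in the NRF livers, also without overlap, and their part in the result was not tested. At ZT12, lights-off and the start of food access under NRF, 2 of 9 members were called, both lower under DRF, of 15.0% of all genes called and 8.04% called as lower. Junb had 1.16, 3.15, 1.53 and 1.54 under DRF and 5.93, 14.5, 9.37 and 3.53 under NRF, a 4.51-fold difference without overlap (limma adjusted p = 0.00233). Ier3 had 0.180, 0.160, 0.104 and 0.246 under DRF and 0.279, 0.369, 0.323 and 0.304 under NRF. It was 1.85-fold lower without overlap (limma adjusted p = 0.0133), and the call was lost without the third DRF liver (limma adjusted p = 0.0716) or the second NRF liver (limma adjusted p = 0.0563). The summed erythroid markers at ZT12 were 912 to 1574 under DRF and 500.1 to 869 under NRF, without overlap, and their part in these results was not tested.

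At ZT16, 4 h into the NRF meal, 3 of 9 members were called, of 15.0% of all genes. Klf6 was higher under DRF, with 7.02, 7.66, 8.66 and 8.01 against 4.54, 5.24, 4.73 and 5.25. The groups did not overlap, the 4 DRF values were above those of all other DRF livers, and the mean was 1.59-fold higher (log2 difference 0.57 ± 0.09, limma adjusted p = 7.03e-06). The summed sinusoidal endothelium markers were 484 to 529 under DRF and 426 to 470 under NRF, also without overlap. These sums also did not overlap at ZT4, where Klf6 was called as lower under DRF. They did not overlap at ZT12 and ZT20 either, where Klf6 was not called. The part of these sums in the Klf6 results was not tested. Atf3 was 2.44-fold lower under DRF, with 3.15, 3.52, 5.59 and 4.45 against 14.5, 10.6, 6.59 and 9.07 (limma adjusted p = 0.0171), and this call was lost without the first liver of either group (limma adjusted p = 0.0579 and 0.0794). Myc had 1.05, 0.419, 0.393 and 0.479 under DRF and 0.530, 1.96, 1.36 and 1.31 under NRF. The groups overlapped by 1 liver on each side, and the 2.20-fold lower mean passed narrowly (log2 difference -0.51 ± 0.18, limma adjusted p = 0.0465), and the call was lost without liver 2, 3 or 4 of DRF (limma adjusted p = 0.116, 0.131 and 0.106) or of NRF (0.187, 0.111 and 0.0748).

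At ZT20, 0 of 9 members were called by limma, of 13.6% of all genes, and at ZT24 0 of 9, of 13.8%; at an unadjusted p under 0.05 the counts were also 0 and 0. At ZT20 both regimens held 1 liver far above the rest for Egr1, with 1.44, 34.2, 1.67 and 1.83 under DRF and 2.44, 32.4, 6.11 and 7.24 under NRF. The spread was estimated over all 14 groups, so the standard error of Egr1 was 0.70 at every time. Averaged over the 7 times, 1 of 9 members differed between regimens, of 12.0% of all genes. This was Egr1, lower under DRF by a log2 difference of -0.78 ± 0.26 (limma adjusted p = 0.0455), and it was lost in 36 of 64 alternatives, 34 of which left out 1 liver, with adjusted p up to 0.0792. 

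**Figure D2:**
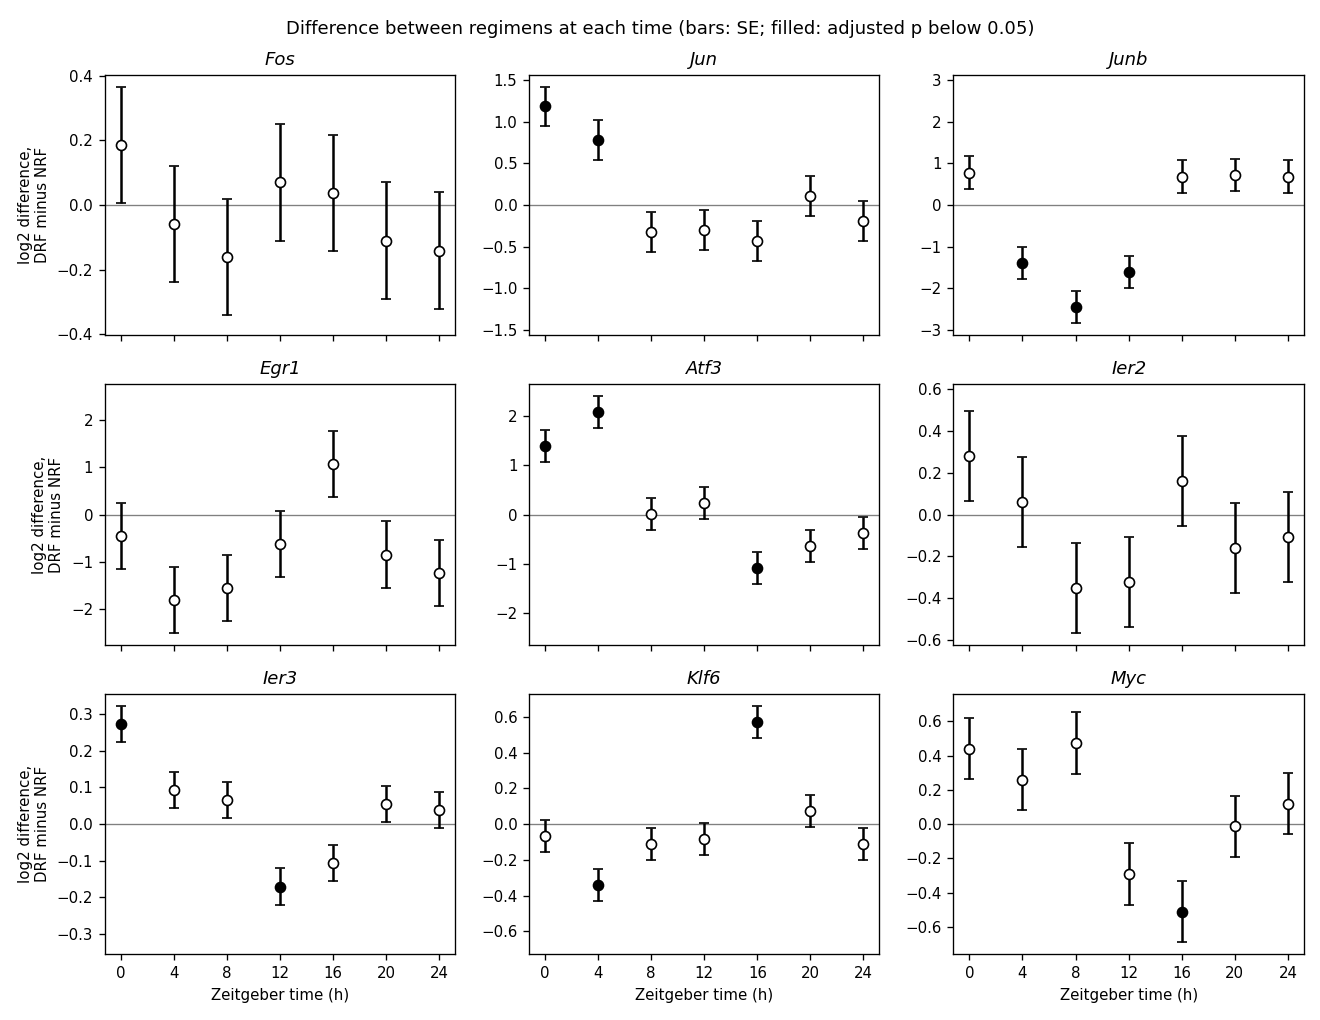
Difference between regimens in log2(scaled count + 1), DRF minus NRF (vertical axes), at each zeitgeber time in hours (horizontal axes), with standard errors from limma and filled points where the adjusted p was under 0.05. Jun and Atf3 were called as higher under DRF at ZT0 and ZT4, Junb as lower from ZT4 to ZT12, and no point was filled at ZT20 or ZT24.

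Within a regimen, 6 of 9 members changed over the 7 times under DRF (Jun, Junb, Atf3, Ier3, Klf6 and Myc), of 40.2% of all genes, and 5 of 9 under NRF (Junb, Egr1, Atf3, Ier3 and Klf6), of 44.5%. Under DRF, Atf3 ran from a mean of 4.18 ± 1.09 at ZT16 to 21.8 ± 5.27 at ZT4 (SD, n = 4 each), a 5.21-fold range. Junb ran from 1.65 ± 0.361 at ZT24 to 15.2 ± 4.47 at ZT8 under NRF, a 9.24-fold range, and from 1.85 ± 0.885 at ZT12 to 7.80 ± 3.69 at ZT0 under DRF. Klf6 moved little, 1.56-fold under DRF and 1.38-fold under NRF, but with a small spread. Fos had means between 0.138 ± 0.0613 and 0.517 ± 0.748 under DRF and between 0.147 ± 0.0799 and 0.547 ± 0.689 under NRF. In both regimens its highest mean came from a single liver, at 1.63 in DRF ZT12 and 1.56 in NRF ZT20, and Fos was called in no limma test. Without ZT0 the DRF calls of Junb and Ier3 were lost (limma adjusted p = 0.0624 and 0.154), and with the length index as a covariate so was that of Myc (0.411). Under NRF, the calls of Egr1 (without ZT16 liver 1, 2 or 4, or with the length index) and Klf6 (without ZT4 liver 2, 3 or 4 or the first ZT16 liver) were each lost in 4 alternatives, with adjusted p up to 0.0927 and 0.154.

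A 24-h harmonic (cosine and sine terms over ZT) was called for 6 of 9 members under DRF (Jun, Junb, Atf3, Ier3, Klf6 and Myc), of 34.6% of all genes, and for 6 of 9 under NRF (Junb, Egr1, Atf3, Ier3, Klf6 and Myc), of 43.3%. With an exact Kendall rank test for a 24-h pattern in its place, 2 of 9 were called under DRF (Junb and Klf6), of 31.9%, and 3 of 9 under NRF (Junb, Atf3 and Ier3), of 33.4%. The Jun harmonic under DRF rested on ZT0: with all ZT0 livers left out its limma adjusted p was 0.769, and those of Atf3 and Ier3 became 0.127 and 0.141. Leaving out 1 liver at a time ended the Jun harmonic in 19 fits and that of Atf3 in 8, the highest adjusted p for Jun being 0.135, without the third DRF ZT0 liver. The Klf6 harmonic under NRF (limma adjusted p = 0.0493) was lost in 42 alternatives, that of Egr1 in 14 and that of Myc in 12, and Myc under DRF was lost with the length index as a covariate (limma adjusted p = 0.34).

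The harmonic differed between regimens for 6 of 9 members, of 38.5% of all genes: Junb (limma adjusted p = 6.55e-08), Klf6 (3.09e-05), Ier3 (0.000522), Atf3 (0.00109), Myc (0.002) and Jun (0.0293). Jun lost this call without ZT0 (limma adjusted p = 0.156) or without the second NRF ZT12 liver (0.0503). All but Jun had a called harmonic under both regimens. The fitted peak of Junb lay at ZT21.0 under DRF and ZT7.86 under NRF, 10.9 h apart. Klf6 peaked at ZT17.0 and ZT3.96, also 10.9 h apart. Ier3 peaked at ZT2.35 and ZT12.7, 10.4 h apart, Myc at ZT4.99 and ZT14.2, 9.18 h apart, and Atf3 at ZT2.89 and ZT17.8, 9.12 h apart. Counted from the start of food access, the distances between regimens were 1.07 h for Klf6, 1.15 h for Junb, 1.61 h for Ier3, 2.82 h for Myc and 2.88 h for Atf3. Ier3 and Myc thus peaked within 5 h of food access in both regimens, Atf3 at 2.89 h and 5.77 h after it, Klf6 at 17.0 h and 15.96 h, and Junb at 21.0 h and 19.9 h, late in the fast.

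To set the regimens side by side on the feeding clock, livers were also compared at 6 matched times from food access, which puts a light-phase time of one regimen against a dark-phase time of the other. In a joint F test over the 6 times, 3 of 9 members differed (Jun, Junb and Atf3), of 38.1% of all genes. Jun (limma adjusted p = 0.00423) and Atf3 (7.18e-05) held in the alternatives, whereas Junb (0.0477) was lost in 44 of them. At the start of food access (DRF ZT0 against NRF ZT12), 2 of 9 members were called, of 2.54% of all genes: Jun was 2.38-fold higher under DRF, with 4.13 to 12.3 against 2.25 to 3.67 (log2 difference 0.95 ± 0.24, limma adjusted p = 0.019), and Atf3 2.76-fold (1.21 ± 0.32, limma adjusted p = 0.03). These calls were lost for Jun without the third DRF liver (limma adjusted p = 0.154) or the fourth NRF liver (0.086), and for Atf3 without DRF liver 2, 3 or 4 (0.128, 0.109 and 0.12) or NRF liver 1, 2 or 4 (0.0518, 0.0618 and 0.0982). At DRF ZT24, the same clock time as ZT0, the means of Jun (1.35) and Atf3 (4.34) were below those at NRF ZT12 (2.96 and 7.25). That comparison was not tested. After 4 h (DRF ZT4 against NRF ZT16), 1 of 9 was called, Atf3, of 14.6% of all genes, and it was 2.14-fold higher under DRF (limma adjusted p = 0.0239), which was lost without the first DRF liver (0.0908) or the third NRF liver (0.0852). After 8 h (DRF ZT8 against NRF ZT20), 1 of 9 was called, of 11.5%, and it was again Atf3, now 3.05-fold lower under DRF, with 3.91, 4.21, 4.98 and 4.23 against 9.51, 18.3, 14.4 and 10.7 (limma adjusted p = 0.00404). After 12 h (DRF ZT12 against NRF ZT24), 0 of 9 members were called by limma, of 1.5% of all genes, and 0 at an unadjusted p under 0.05. At 16 h (DRF ZT16 against NRF ZT4) 0 of 9 were called, of 17.0%, and 3 at an unadjusted p under 0.05. At 20 h (DRF ZT20 against NRF ZT8) 1 of 9 was called, of 16.2%: Junb was 2.05-fold lower under DRF (limma adjusted p = 0.0182), and 1 of its 4 DRF livers was at 18.8. This call was lost without DRF liver 1 or 3 (0.0878 and 0.101) or the third NRF liver (0.075). The length index described below did not overlap between the groups matched at 4 h, 8 h or 20 h. At 4 h it was -0.214 to -0.0902 for DRF ZT4 and 0.0439 to 0.145 for NRF ZT16. There a fit with the index as a covariate could hardly separate index from group, and no conclusion is drawn from a call lost or kept. With the length index as a covariate the calls at 0 h, 4 h and 20 h were lost (limma adjusted p from 0.138 to 0.584), and that of Atf3 at 8 h was kept. With the values as deposited the same calls were lost, for Jun and Atf3 at 0 h (limma adjusted p = 0.105 and 0.123), Atf3 at 4 h (0.119) and Junb at 20 h (0.0922), and 4 more members were called at 8 h, Jun, Egr1, Ier2 and Klf6 (0.0141, 0.0466, 0.0472 and 0.0458).

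To determine what happened as the meal began, each regimen was followed over its first 4 h of feeding. Under DRF (ZT4 against ZT0), 3 of 9 members fell and 0 rose, where 12.2% of all genes were called and 5.86% fell. Junb fell 3.80-fold without overlap, from 12.6, 4.88, 8.83 and 4.91 to 1.63, 2.56, 1.95 and 2.08 (log2 difference -1.44 ± 0.39, limma adjusted p = 0.00765). Jun fell 1.94-fold (limma adjusted p = 0.0419) and Ier3 1.61-fold (limma adjusted p = 0.0154), both with overlapping groups. The direction for Jun and Ier3 depended on the ZT0 group. At DRF ZT24, the same clock time, Jun (1.35) and Ier3 (0.182) lay below their ZT4 means (3.63 and 0.267). Junb (3.91) still lay above its ZT4 mean (2.06). ZT4 was not tested against ZT24. Under NRF (ZT16 against ZT12), 3 of 9 fell and 0 rose, of 16.5% of all genes called and 9.89% that fell. Junb fell 4.65-fold without overlap, from 5.93, 14.5, 9.37 and 3.53 to 1.26, 2.88, 1.51 and 1.51 (limma adjusted p = 0.00195). Egr1 fell 8.96-fold, from 11.9, 9.71, 3.53 and 2.84 to 0.441, 0.479, 1.55 and 0.656 (log2 difference -2.02 ± 0.70, limma adjusted p = 0.0393). Ier2 fell 1.71-fold, from 4.28, 4.75, 4.91 and 3.78 to 2.45, 2.98, 2.004 and 2.96 (limma adjusted p = 0.0483). The test of the difference between regimens called 0 of 9 members by limma, of 0.759% of all genes, and 0 at an unadjusted p under 0.05. The Junb call under NRF was kept in every alternative run, and that under DRF was lost in 1, without the first ZT0 liver (limma adjusted p = 0.0558).

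The other calls over the first 4 h of feeding were lost without single livers and in some other alternatives. Jun under DRF was lost without ZT0 liver 3 or 4 (limma adjusted p = 0.305 and 0.0658) or ZT4 liver 2, 3 or 4 (0.0912, 0.0816 and 0.0975), with a pseudocount of 0.1 (0.0747) and with the values as deposited (0.171). Ier3 under DRF was lost without ZT0 liver 3 or 4 (limma adjusted p = 0.0789 and 0.128) or the fourth ZT4 liver (0.0746), with a pseudocount of 0.1 (0.0525) and with the values as deposited (0.109). Egr1 under NRF was lost without ZT12 liver 1 or 2 (limma adjusted p = 0.114 and 0.109) or ZT16 liver 1, 2 or 4 (0.0853, 0.077 and 0.0663) and with the length index as a covariate (0.0653). Ier2 under NRF was lost without any of 7 single livers, with adjusted p up to 0.139, with median-of-ratios scaling (limma adjusted p = 0.0671) and with the length index as a covariate (0.0928).

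ZT0 and ZT24 are the same time of the cycle, sampled as separate groups, so they show how far 2 sets of 4 animals at 1 clock time can differ. Under DRF, 3 of 9 members were lower at ZT24 than at ZT0, where 3.06% of all genes were called and 1.64% as lower. Jun fell from 4.13, 5.54, 12.3 and 6.23 at ZT0 to 1.20, 1.27, 1.22 and 1.72 at ZT24, 5.21-fold and without overlap (log2 difference -1.68 ± 0.24, limma adjusted p = 5.76e-05). Atf3 fell 4.61-fold, from 5.74, 27.6, 22.5 and 24.1 to 3.88, 4.49, 3.39 and 5.60 (limma adjusted p = 0.00172). Ier3 fell 2.36-fold, from between 0.284 and 0.571 to between 0.156 and 0.233 (limma adjusted p = 0.00185). Under NRF 0 of 9 members were called by limma, of 7.81% of all genes, and 1 at an unadjusted p under 0.05. The test of the difference between regimens called 0 of 9, of 0.00397% of all genes, and 3 at an unadjusted p under 0.05. The members called here are those called between regimens at ZT0, and both comparisons share the DRF ZT0 livers. At ZT24 the DRF means of Jun, Atf3 and Ier3 (1.35, 4.34 and 0.182) stood beside NRF means of 1.70, 5.90 and 0.151, and no difference was called.

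The length index of a library (the rank correlation, over genes, of exon length with the gene's deviation from its mean) ran from -0.151 to -0.0345 at DRF ZT0 and from 0.0566 to 0.232 at DRF ZT24, without overlap. The NRF groups were also apart, at -0.280 to -0.0152 for ZT0 and 0.0702 to 0.228 for ZT24. Group means of the index were negative at ZT0, ZT4 and ZT8 in both regimens and positive from ZT12 to ZT24. Changes over the day, harmonics and some of the matched times therefore also compared libraries of unlike index. With the length index as a covariate the 3 calls between ZT24 and ZT0 were lost (limma adjusted p = 0.0704 for Jun, 0.2 for Atf3 and 0.33 for Ier3), whereas those between regimens at ZT0 were kept. Since the index did not overlap between ZT0 and ZT24, that fit could hardly separate index from time. No conclusion about these 3 genes is drawn from the loss. The summed erythroid markers were 714 to 2039 at DRF ZT0 and 915 to 1648 at DRF ZT24, so that these ranges overlapped. The labels do not say whether ZT0 and ZT24 were sampled on the same day, so sampling occasion and time cannot be told apart.

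**Figure D3:**
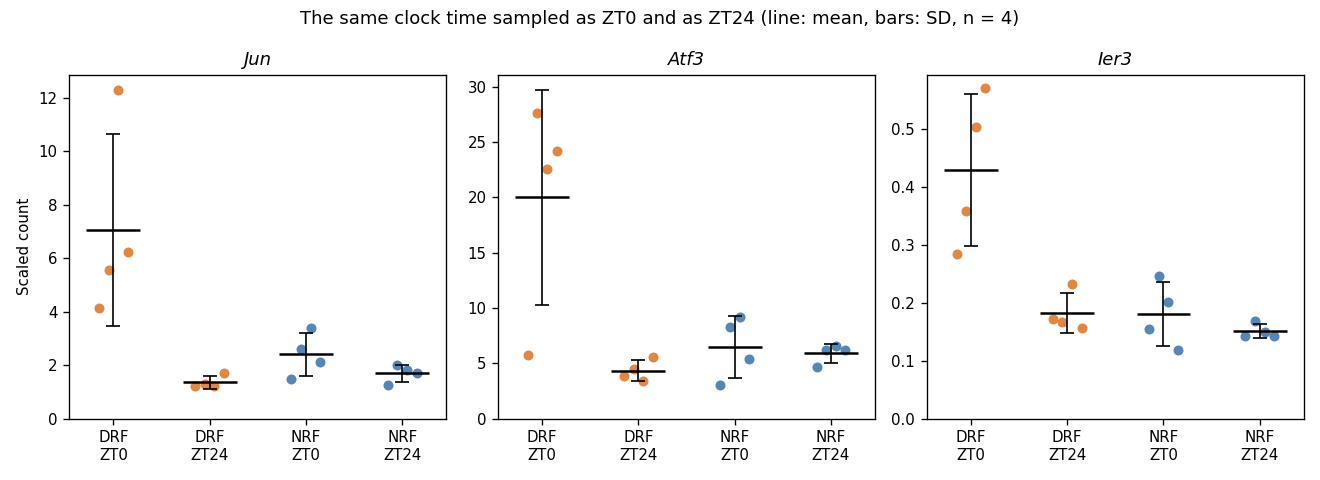
Scaled counts of Jun, Atf3 and Ier3 (vertical axes, from 0) in the ZT0 and ZT24 groups of each regimen (horizontal axis), with 1 point per liver, lines at the means and bars for the SD of 4 animals. The DRF ZT0 livers sat above the DRF ZT24 livers for all 3 genes, while the NRF groups overlapped.

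Beside the time of day, the members varied between animals of the same group. Deviations of each liver from its group mean were compared between Fos and each of the 8 other members over the 56 livers, in 8 relations tested by permutation within groups and adjusted over the 8. Fos deviated together with 6 of them. The relation was strongest for Ier2 (Pearson r = 0.754, permutation adjusted p = 0.00112; Spearman rho = 0.647, adjusted p = 0.00036) and Egr1 (r = 0.678, permutation adjusted p = 0.0028; rho = 0.462, adjusted p = 0.00936). It was weaker for Jun (r = 0.569, rho = 0.592), Junb (r = 0.425, rho = 0.452) and Atf3 (r = 0.366, rho = 0.384), with permutation adjusted p of 0.00196, 0.0137 and 0.0115 for r and 0.00036, 0.00715 and 0.0131 for rho. For Myc only r passed (r = 0.275, permutation adjusted p = 0.023; rho = 0.267, adjusted p = 0.0814). Ier3 (r = 0.218, rho = 0.264, permutation adjusted p = 0.118 and 0.0814) and Klf6 (r = 0.148, rho = 0.0306, permutation adjusted p = 0.543 and 0.84) did not pass. No share over all genes stands beside these 6 of 8 relations, so they cannot be read as a trait of the members.

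The relations depended on which livers were included. Leaving out the 2 livers farthest from the median Fos deviation (the second of DRF ZT12 and of NRF ZT20) gave r of 0.616 for Ier2, 0.570 for Junb, 0.550 for Jun, 0.493 for Egr1 and 0.409 for Atf3, all still past the threshold, while Myc fell to 0.199 (permutation adjusted p = 0.2) and Ier3 passed at 0.352 (permutation adjusted p = 0.0312). Within DRF alone 2 of the 8 relations passed (Ier2 at r = 0.821 and Egr1 at 0.807), and within NRF alone 4 passed (Ier2 at 0.671, Jun at 0.642, Myc at 0.322 and Ier3 at 0.287). Without the 14 livers that the labels number 2, a choice made after the values were seen, 0 of the 8 relations passed in the permutation test, with r of 0.443 for Ier2 and 0.145 for Egr1, and 1 (Atf3, r = 0.414) at an unadjusted p under 0.05.

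Fos was highest in the liver numbered 2 in 9 of 14 groups, Junb in 7, Egr1, Ier2 and Ier3 in 6, Jun and Klf6 in 5, and Atf3 and Myc in 3. Another number was the most frequent for Jun and Atf3 (number 3, in 6 groups each), Klf6 (number 1, in 6) and Myc (number 4, in 6). In NRF ZT20 the second liver was the highest of its group for 8 of 9 members, where it was the highest for 27.7% of all genes. In DRF ZT20 the second liver was highest for 7 of 9 members and also for 27.7% of all genes, and in DRF ZT12 for 6 of 9 members and 23.8% of all genes. In the second liver of DRF ZT20, Egr1 was 34.2, Junb 18.8, Atf3 16.7, Ier2 8.71 and Jun 7.05, where the other 3 livers had at most 1.83, 5.11, 6.73, 3.19 and 2.78. Klf6, at 6.27 there, lay within the 5.27 to 6.51 of its group. The labels give the number as a replicate only.

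**Figure D4:**
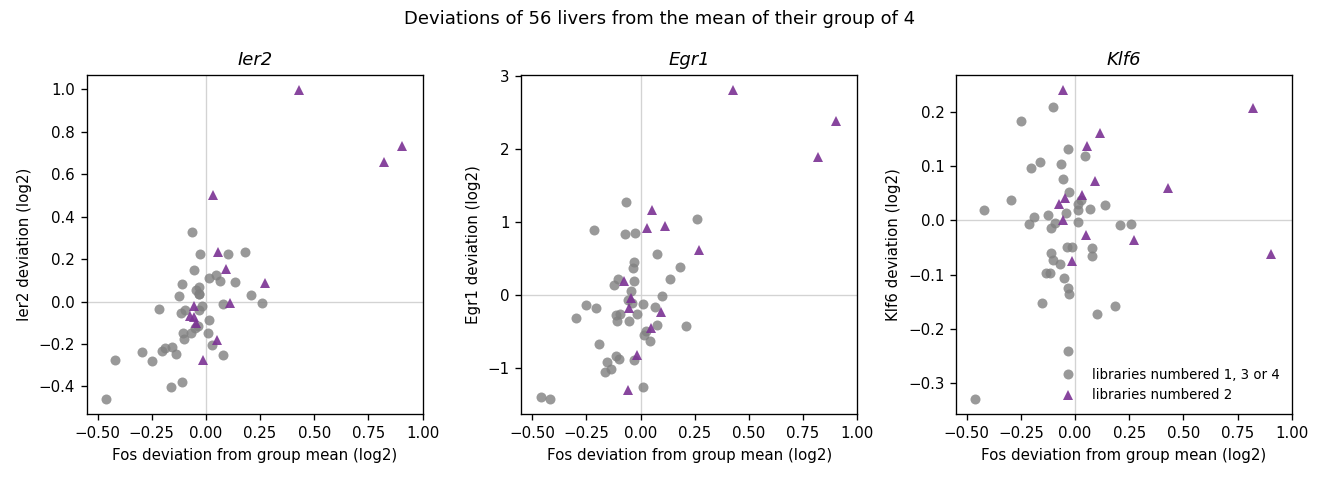
Deviation of each of the 56 livers from its group mean in log2(scaled count + 1), for Fos (horizontal axes) and for Ier2, Egr1 or Klf6 (vertical axes), with livers numbered 2 as triangles and the others as circles. The livers farthest to the right are triangles that are also high for Ier2 and Egr1, and for Klf6 the same livers are spread around 0.

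The wider early response was read from 7 lists of related genes, in which 73 of 83 symbols were tested. Of these, 55 of 73 differed between regimens in the joint F test (42.2% over all genes), 52 of 73 changed over time under DRF (40.2%) and 47 of 73 under NRF (44.5%). By list, the joint F test called 5 of 10 AP-1 relatives, 3 of 6 EGR and NR4A genes, 12 of 15 early feedback regulators, 7 of 10 SRF, TCF and CREB regulators, 15 of 17 other early response genes, 8 of 9 genes of the MYC network and 5 of 6 stress partners of ATF3. At ZT0, 22 of 73 were higher under DRF and 4 lower, with a median difference of 0.11, against 1974 and 1994 of all genes and a median of -0.00. At ZT12 the split was 4 higher and 19 lower with a median of -0.15, against 1748 and 2024 of all genes. Between ZT0 and ZT24 under DRF, 1 of 73 rose and 17 fell, with a median of -0.21, against 356 and 413 of all genes.

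Of the lists, the other early response genes held the largest share called at ZT0, with 10 of 17 higher under DRF at ZT0 and 1 lower (median 0.40), 0 higher and 8 lower at ZT12 (median -0.32), and 0 higher and 10 lower at DRF ZT24 against DRF ZT0 (median -0.42). Csrnp1, a nuclear protein induced by AXIN1, had 10.5 ± 3.90 under DRF at ZT0 against 2.68 ± 0.336 under NRF (SD, n = 4 each; log2 difference 1.59, limma adjusted p = 4.12e-06), and at ZT12 it was lower under DRF by a log2 difference of -1.08 (limma adjusted p = 0.00139). Cebpb, a liver acute-phase factor, was higher under DRF at ZT0 (29.2 ± 1.54 against 15.6 ± 1.70, limma adjusted p = 0.000486) and lower at ZT12 (12.0 ± 1.94 against 37.1 ± 12.6, limma adjusted p = 2.65e-08). Klf10, induced by TGF-beta, was also higher at ZT0 and lower at ZT12 (log2 differences 0.76 and -0.88, limma adjusted p = 0.0482 and 0.0212).

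Nr4a1, an orphan nuclear receptor and classical early gene, was 2.85 ± 1.67 at DRF ZT0 against 0.680 ± 0.184 at NRF ZT0 (log2 difference 1.1, limma adjusted p = 3.21e-06), and its other DRF means were between 0.426 and 0.649. Nr4a3, its relative, was higher under DRF at ZT0 and lower at ZT16 (log2 differences 0.33 and -0.29, limma adjusted p = 0.00829 and 0.0274), and of Nab2, a corepressor of EGR factors, no single time was called. Among the AP-1 relatives, the small Maf protein Maff was higher under DRF at ZT0 and lower at ZT12 (log2 differences 0.51 and -1.08, limma adjusted p = 0.00242 and 7.05e-09). Mafk was lower from ZT4 to ZT12 and higher from ZT16 to ZT24, with its largest difference at ZT16 (0.79, limma adjusted p = 1.03e-08). Jund, the third Jun protein, was higher under DRF at ZT4 and lower at ZT12 (0.51 and -0.45, limma adjusted p = 0.000828 and 0.00425).

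Among the feedback regulators, Zfp36l2, an mRNA decay factor, was 6.93 ± 0.541 at NRF ZT20 and 14.01 ± 3.45 at DRF ZT20 (log2 difference 0.90, limma adjusted p = 3.39e-05). Btg1, an antiproliferative factor, was lower under DRF at ZT4 and higher at ZT16 (log2 differences -0.87 and 0.97, limma adjusted p = 1.2e-05 and 3.21e-06), and Nfkbia, the inhibitor of NF-kB, was lower at ZT12 (-0.81, limma adjusted p = 1.09e-05) and higher at ZT0, ZT20 and ZT24 (0.41, 0.53 and 0.44, limma adjusted p = 0.0272, 0.00338 and 0.0164). Crem, a cAMP-responsive modulator, was higher under DRF at ZT12 and lower at ZT24 (0.58 and -0.64, limma adjusted p = 5.21e-05 and 1.18e-05). Crtc2, a CREB coactivator, was lower at ZT4 (-0.44, limma adjusted p = 0.00654) and higher at ZT0 and ZT24 (0.36 and 0.39, limma adjusted p = 0.0363 and 0.0238). Mrtfa, an SRF coactivator, was lower at ZT0 and ZT16 (-0.43 and -0.37, limma adjusted p = 0.00229 and 0.012). In the MYC network, Mycl was higher under DRF at ZT16 (5.39 ± 0.241 against 2.06 ± 0.499, limma adjusted p = 5.51e-06), and Mlx was higher at ZT4 (0.91, limma adjusted p = 3.05e-06) and lower at ZT20 and ZT24 (-0.56 and -0.45, limma adjusted p = 0.0037 and 0.0245). Mga was lower at ZT4, ZT8 and ZT24 (-0.29, -0.36 and -0.25, limma adjusted p = 0.0123, 0.00244 and 0.0476) and higher at ZT16 (0.32, limma adjusted p = 0.00709). For the other genes named from these lists the times given need not be all those called.

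Of the stress partners of ATF3, Trib3, a pseudokinase induced by ATF4, was 13.8 ± 2.88 at NRF ZT8 and 1.21 ± 0.0591 at DRF ZT8 (log2 difference -2.72, limma adjusted p = 3.46e-10), and it was higher under DRF at ZT16 (5.95 ± 1.77 against 0.811 ± 0.171, limma adjusted p = 8.48e-07). Chac1, a glutathione-degrading enzyme, was lower under DRF at ZT4 and higher at ZT16 (log2 differences -0.84 and 0.67, limma adjusted p = 7.66e-06 and 0.000477). Atf5 was lower at ZT4 and higher at ZT16 (-0.94 and 1.28, limma adjusted p = 0.000626 and 1.17e-05).

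Of the 10 genes whose levels over the 56 livers were most like the mean z-score of the 9 members, 9 are described here, with Pearson r from 0.585 to 0.684, given as a description. They were Gm27804 (0.684), the pseudokinase Trib1 (0.680), Jund (0.659), Nr4a1 (0.657), the MAP kinase inhibitor Spry4 (0.638), Sertad1 (0.615), the small GTPase Rhob (0.596), the ERK phosphatase Dusp6 (0.595) and B3galt4 (0.585). Of these 9, 7 had their highest group mean at DRF ZT0, Gm27804 at DRF ZT4 and Rhob at DRF ZT20. Spry4 ranged from 5.05 to 32.2 scaled counts and Dusp6 from 5.92 to 29.8. The mean z-score of the members, by which these genes were chosen, was itself highest at DRF ZT0, at 1.04 over the group. It was lowest at DRF ZT24, at -0.56. The shared time of the highest mean therefore follows from the choice and is not a separate result.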

How the data were processed

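Liver RNA of 56 mice was sequenced as ribosome-depleted, strand-specific paired-end libraries. The authors' processing notes name CASAVA 1.8, featureCounts 1.5.0-p3 and the builds mm10 and GRCm38.p6; the aligner is not given in the sources used here. The labels call the molecule polyA RNA, whereas the protocol describes ribosomal depletion. The deposited table is headed as TPM, but its values behave as a score: value times exon length (GENCODE vM21) equals a constant times the natural logarithm of 1 plus a scaled count. Scaled counts were rebuilt by inverting this relation in each library. In genes held out of the fit, 96.5 to 99.1% of recovered counts were within 0.05 of a whole number (10% by chance). Recovered counts exceed the read depth given in the study's methods, so they are not read as sequenced reads. Of 25415 genes, 251 could not be rebuilt, and a minimum mean deposited value of 0.1 removed 0.

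Since the scaled counts are a transformed quantity, no count model was used. log2(scaled count + 1) was fitted with limma 3.58.1 (R 4.3.3) across all genes, 1 mean per group, and p-values were adjusted by Benjamini-Hochberg over 25164 genes. A deposited unit of TPM had been assumed in the design, and the test on the log2 scale was kept. Fos correlations used 100000 permutations within groups in Python 3.11.15. Each library was taken as a separate animal, and the labels give only a replicate number. The scripts were tested on simulated data. Alternatives were a pseudocount of 0.1, a minimum mean scaled count of 0.5, no filter, the values as deposited, median-of-ratios scaling, a replicate block, the length index as a covariate, omission of ZT24 and of each library, and a Kendall rank test; omission of ZT0 and of the livers numbered 2 was added after seeing the data. Over 13536 genes, same-numbered livers of the 2 regimens at 1 time did not deviate together, so the main fit did not pair samples by number. What the number stands for is not given in the labels. All 9 members are named; other genes are the at most 3 per list with the smallest joint F p and the 10 most like the members' mean, of which 1 is not reported here. Members and lists were chosen with earlier results of these data known. Promoters came from RefSeq (GRCm38.p6); none is printed for Egr1, Ier2 or Myc.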

Additional observations from a re-analysis of the deposited data

Results flagged for a closer look

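A liver of a group of 4 was singled out where its gap to the nearest of the others took up nearly the whole range of the group (Dixon's test at 95%). This was so in 18 of 126 combinations of member and group, all on the high side, where 1 in 20 by chance would give 6.3. The 1 in 20 holds for normal and independent values. The scaled counts were not logged here and several members varied together within a liver. The count of 18 beside 6.3 is therefore a description and not a test. Of the 18, 14 were livers numbered 2.

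In the second liver of DRF ZT20, 5 members stood apart, with scaled counts of 0.81 for Fos, 18.8 for Junb, 34.2 for Egr1, 16.7 for Atf3 and 8.71 for Ier2. In the second liver of DRF ZT12, Fos was 1.63, Egr1 22.7 and Ier2 6.2. The second liver of NRF ZT20 stood apart for Jun at 4.49 and Egr1 at 32.4. Among the other livers numbered 2, Fos was 0.23 at DRF ZT8, Egr1 6.53 at DRF ZT4, Ier2 6.0 at NRF ZT0 and Junb 2.88 at NRF ZT16. Outside them, Junb was 9.1 in the first liver of DRF ZT24 and 21.9 in the third of NRF ZT8, Jun was 1.72 in the fourth of DRF ZT24, and Myc was 1.05 in the first of DRF ZT16.

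The 24-h harmonic differed between DRF and NRF by limma's test of the difference itself for Junb (adjusted p = 6.55e-08), Klf6 (adjusted p = 3.09e-05), Ier3 (adjusted p = 0.000522), Atf3 (adjusted p = 0.00109), Myc (adjusted p = 0.002) and Jun (adjusted p = 0.0293).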

How the results depend on the processing

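No result past the threshold changed direction under an alternative; some results short of it did, such as the relation of Fos with Klf6 (r = 0.148 over all livers and -0.0931 within DRF). Leaving out 1 library at a time, the members called numbered 6 to 7 between regimens in the joint F test, 6 to 7 over time under DRF and 4 to 6 under NRF, 4 to 6 for the harmonic under DRF, 3 to 6 under NRF and 5 to 7 for its difference, 0 to 2 for the daily mean, 3 to 4 for ZT24 against ZT0, 3 to 6 for the first 4 h of feeding and 2 to 5 at matched times from food access. At single times they numbered 3 to 4 at ZT0, 3 to 5 at ZT4, 1 to 2 at ZT8, 1 to 2 at ZT12, 2 to 3 at ZT16, 0 to 1 at ZT20 and 0 to 0 at ZT24, and 4 to 6 Fos relations passed. The harmonic under DRF was called for 3 members without ZT0 and 2 by the Kendall test, against 6, and under NRF for 3 by the Kendall test, against 6; the cause was not tested. The daily mean was called for 0 with the values as deposited, against 1. With the length index as a covariate, ZT24 against ZT0 was called for 0, against 3. A minimum mean scaled count of 0.5 kept 7 members, without Fos and Ier3, so that ZT12 was called for 1, against 2. Of the Fos relations, 2 passed within DRF and 0 without the livers numbered 2, against 6. The replicate block, in a paired fit by number, left 238 of the members' single results on the same side of the threshold, took 3 past it (Egr1 at ZT4, limma adjusted p = 0.0443, which made 5 members called there, Myc at DRF ZT8 against NRF ZT20, 0.0462, and Egr1 in the joint test at matched times, 0.0456) and 2 back (Junb in the joint test at matched times and the Klf6 harmonic under NRF). Same-numbered livers of the 2 regimens at 1 time did not deviate together (correlations -0.142 to 0.0893 in 28 pairs, over 13536 genes). The spread between 4 animals, widest for Egr1 and Fos, limits what can be called, and Fos and Ier3 are further limited by their low counts.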
